A study of Mus musculus with 3 samples.

Results

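Colony-stimulating factors and their receptors were examined in leukocytes from 4T1 mouse mammary tumors. 7 of the 32285 genes measured were chosen by symbol: the ligand genes Csf1 (M-CSF) and Csf2 (GM-CSF), and the receptor genes Csf1r, Csf2ra, Csf2rb, Csf2rb2 and Csf3r. Live CD45+ cells, the leukocytes of the tumor, were sorted and profiled by droplet single-cell RNA sequencing, which counts unique molecular identifiers (UMIs) from the 3′ end of transcripts. All tumors were grown for 14 days from 200000 cells in the 4th mammary fat pad of female BALB/c mice 6 to 8 weeks old. The vehicle group carried p38α wild-type 4T1-luc tumors and received DPBS by gavage, and the p38i group carried the same tumors and received the p38 inhibitor LY2228820 at 30 mg/kg daily, both for 10 days from day 4. The p38KO group carried tumors of a single CRISPR-Cas9 clone, p38a-KO-H9, in which p38α was inactivated in the tumor cells but not in the host, and no gavage is stated for it. Each group was 1 library made from 3 pooled tumors. No p-value can therefore be given, and the group cannot be told apart from the library, from the pool of mice or, for p38KO, from the clone.

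After the filter on cells (at least 1500 UMIs, at least 300 genes, at most 20% mitochondrial counts) 3820 vehicle, 4793 p38i and 3859 p38KO cells remained, with median depths of 3162, 3038 and 3317 UMIs. Cells were assigned to gates from raw counts of a few genes: Cxcr2 and Hdc for neutrophils, Ly6c2 and Fn1 for monocytes, C1qa for macrophages, Flt3 for dendritic cells (DC), Cd3e for T cells and Ncr1 for NK cells, and 533, 569 and 472 cells met no gate. Neutrophils made up 1901, 2341 and 1608 cells, monocytes 429, 741 and 361, macrophages 203, 200 and 633, DC 50, 89 and 87, T cells 544, 690 and 458 and NK cells 116, 120 and 114, where values given as 3 in a row follow the order vehicle, p38i and p38KO here and below. 4 to 5 barcodes were shared by any pair of libraries among kept cells. The labels of the gates were checked against markers that the gates did not use. Summed over 6 neutrophil genes that the gate did not use (S100a8, S100a9, Retnlg, Il1r2, Mmp9 and Clec4d), the level was 184056, 206058 and 140709 CPM (counts per 1e6 UMIs of the cells they were summed over) in neutrophils of vehicle, p38i and p38KO, against 8511, 8488 and 3430 CPM in monocytes. Summed over 5 macrophage genes (C1qb, C1qc, Apoe, Mrc1 and Adgre1) it was 17010, 20516 and 27287 CPM in macrophages, against 254, 402 and 505 CPM in neutrophils. Transcripts of neutrophils were thus found at a low level outside their gate. The DC gate was less distinct: 6 DC genes (Zbtb46, Xcr1, Cd209a, Ccr7, Fscn1 and H2-Ab1) summed to 5033, 5089 and 6227 CPM in DC, and to 4056, 4298 and 5514 CPM in macrophages. 6 markers of tumor and stromal cells summed to 25.3 to 54.6 CPM in neutrophils and macrophages, to 51.7, 49.6 and 212 CPM in monocytes, to 36.2 to 54.7 CPM in T cells and DC and to 125 to 165 CPM in NK cells. The sort was for CD45+ cells, so the ligand output of the tumor and stromal cells themselves was not measured.

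M-CSF, the product of Csf1, binds the receptor tyrosine kinase Csf1r and sustains monocytes and macrophages. GM-CSF and G-CSF, the products of Csf2 and Csf3, act on granulocytes and other myeloid cells. GM-CSF binds Csf2ra, which pairs with the signalling β chain Csf2rb, also shared with the receptors of interleukin 3 and interleukin 5, and mice carry a second β chain gene, Csf2rb2, for interleukin 3. G-CSF binds Csf3r, and the β chains and Csf3r signal through Jak2 and Stat proteins. In 4T1 tumors such factors are known for driving granulocyte expansion. Levels below are CPM summed over the cells of a gate with an exact Poisson 95% interval, which covers counting error only. UMIs from 3′ ends give no level per transcript length, so levels are compared between cells and libraries, not between genes. A difference from vehicle was called when the log2 ratio was at least 0.5 either way, its exact conditional binomial 95% interval held no 0 and both libraries together gave at least 20 counts.

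**Figure D1:**
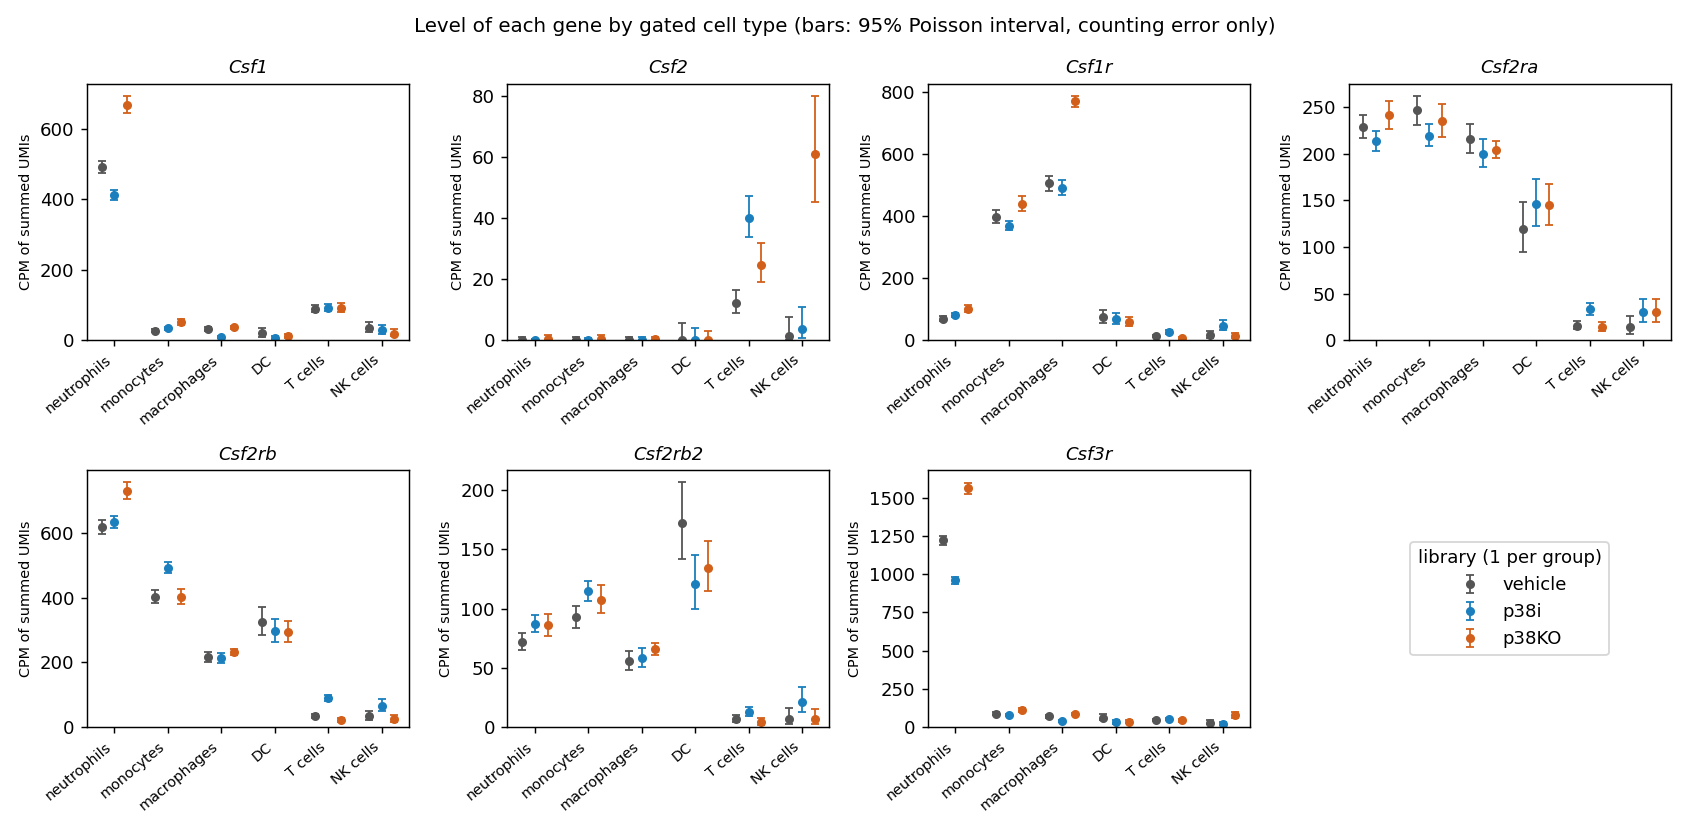
Level of each of the 7 genes (y axis, CPM of summed UMIs) in 6 gates (x axis) of the 3 libraries, vehicle, p38i and p38KO, with 1 point per library and bars for the 95% Poisson interval. Csf1 and Csf3r stood highest in neutrophils, Csf1r in macrophages and monocytes, and Csf2 in T cells and, in p38KO, NK cells.

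Csf1 was first of all a neutrophil transcript in these tumors. Neutrophils held 491 CPM (473 to 510) in the vehicle library, 412 (397 to 428) in p38i and 668 (644 to 693) in p38KO. They supplied 73.9%, 76.7% and 67.2% of all Csf1 UMIs in kept cells. The level was thus lowest with p38i and highest with p38KO, and the intervals of the 3 libraries did not overlap. Against vehicle the log2 ratios were −0.25 (−0.33 to −0.18) for p38i and 0.44 (0.37 to 0.52) for p38KO, both under the size limit. p38KO neutrophils stood 0.70 above p38i neutrophils on the log2 scale, a 1.62-fold difference. The median gene tested in neutrophils lay at 0.13 in p38i and 0.12 in p38KO, so relative to it the p38i ratio was −0.38 and the p38KO ratio 0.32.

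Within the neutrophil gate, cells with no Cxcr2 UMI held more Csf1 than cells with Cxcr2, the chemokine receptor of circulating and newly arrived neutrophils. Hdc-positive cells without Cxcr2 held 601, 553 and 787 CPM in vehicle, p38i and p38KO, and Cxcr2-positive cells 468, 387 and 649 CPM. The order was the same in all 3 libraries. When every cell was thinned to 1500 UMIs, 749 of 1901, 866 of 2341 and 688 of 1608 neutrophils still had a Csf1 UMI. Among 2250 genes with enough counts, Ccl3, which encodes a chemokine for monocytes and T cells, ranked first by its smallest ratio over the 3 libraries, with log2 ratios of 0.93, 1.28 and 0.88 between neutrophils with and without a Csf1 UMI. Ccl4 (0.96, 0.68 and 0.80), the lectin Clec4n (0.69, 0.97 and 0.96) and Ccrl2 (0.63, 0.63 and 0.64) were also among the 8 highest, and Retnlg (−1.18, −1.27 and −2.05), Vim and Lyz2 led the lower side. These neighbours were ranked after Csf1 had split the cells, and they describe the split without a test.

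Csf3r shared this gate with Csf1 and lay on the same side of vehicle as Csf1 in each library, below it in p38i and above it in p38KO. Csf3r, the G-CSF receptor that marks the granulocyte lineage, stood at 1222 CPM (1193 to 1250) in vehicle neutrophils, 961 (938 to 984) in p38i and 1562 (1525 to 1601) in p38KO, with 84.8%, 84.1% and 78.6% of its UMIs in that gate. The log2 ratios to vehicle were −0.35 (−0.40 to −0.30) and 0.35 (0.31 to 0.40), again under the size limit, or −0.47 and 0.23 relative to the median gene, and p38KO exceeded p38i by 0.70, or 1.63-fold. Unlike Csf1, Csf3r was higher in the Cxcr2-positive cells, at 1314, 1000 and 1678 CPM against 788, 741 and 855 CPM without Cxcr2. In single cells at equal depth the shares differed little: Csf3r was found in 74.5%, 70.8% and 82.4% of neutrophils with Csf1 and in 77.2%, 71.3% and 83.2% of those without.

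The upstream promoters of these 2 genes are given because both genes had their main level in neutrophils, lowest in p38i and highest in p38KO. RefSeq promoter entries (GRCm38.p6) were found for 5 of the 7 genes. The 250 bases before the annotated start are printed 5′ to 3′ on the strand of the gene, for Csf1 at chr3:107760470-107760719 (minus strand) and for Csf3r at chr4:126024409-126024658 (plus strand), with capitals for matches on either strand to an NF-kB motif, the letters GGGA, then 4 bases of any kind, then CC, or to a PU.1 motif, the letters GAGGAAG.
Csf1: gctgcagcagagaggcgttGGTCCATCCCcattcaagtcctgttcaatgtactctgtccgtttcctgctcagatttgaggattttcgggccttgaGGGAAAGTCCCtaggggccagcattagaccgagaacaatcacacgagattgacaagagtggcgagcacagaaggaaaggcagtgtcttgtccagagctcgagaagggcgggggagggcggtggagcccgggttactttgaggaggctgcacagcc
Csf3r: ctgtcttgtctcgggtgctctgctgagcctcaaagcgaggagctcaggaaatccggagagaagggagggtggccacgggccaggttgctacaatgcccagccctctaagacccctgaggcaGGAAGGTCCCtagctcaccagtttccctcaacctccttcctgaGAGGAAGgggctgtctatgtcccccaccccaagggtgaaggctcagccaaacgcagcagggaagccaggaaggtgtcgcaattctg
The Csf1 window held 3 matches to the NF-kB letters, of which 2 overlap each other, and none to GAGGAAG. The Csf3r window held 1 match to each. In the GENCODE M21 annotation Csf3r starts at 126024550, inside this window, so the annotations differ on its start. The GAGGAAG match lies after that GENCODE start and the NF-kB match before it. Windows of the same length with at least 1 match made up 17.6% of the 32851 promoters searched for the NF-kB letters and 10.6% for GAGGAAG. Neither window matched an AP-1 motif (TGANTCA) or a C/EBP motif (TTNNGNAA), which 6.75% and 36.8% of promoters hold. A match shows the letters in the window and no binding.

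Csf1 was also a T cell transcript, and T cells held 8.01%, 8.76% and 5.53% of its UMIs, and cells in no gate held 405 of 3833, 248 of 3723 and 539 of 4144. Csf1 in the T cell gate as a whole differed little between libraries, at 89.1 (79.4 to 99.7), 91.6 (81.9 to 102) and 91.6 CPM (80.1 to 104), with log2 ratios of 0.04 (−0.19 to 0.27) for p38i and 0.04 (−0.21 to 0.29) for p38KO. T cells stood at 18.1%, 22.2% and 13.7% of the neutrophil level, above the 1.72 to 12.6% at which the 6 neutrophil markers stood there. The same held for CD8 T cells, at 27.0%, 33.9% and 6.79% of the neutrophil level against at most 4.14%, 5.80% and 5.07% for the markers, and for CD4 T cells of vehicle and p38KO, at 6.76% and 19.9% against at most 5.76% and 17.6%, but not for CD4 T cells of p38i, at 16.2% against at most 25.3%. Behind the equal totals the subsets differed. CD8 T cells (Cd8a or Cd8b1, no Cd4 and no Foxp3) held 133 CPM (117 to 150) in vehicle, 140 (122 to 160) in p38i and 45.3 (31.9 to 62.5) in p38KO. CD4 T cells without Foxp3 held 33.2 (19.3 to 53.1), 66.6 (48.2 to 89.8) and 133 (108 to 163) CPM. T cells with Foxp3, the factor of regulatory T cells, held 35.2 (18.7 to 60.1), 51.3 (34.1 to 74.2) and 144 (110 to 186) CPM. In p38KO the order of CD8 over CD4 cells seen in the other 2 libraries was therefore turned round.

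The log2 ratio of p38KO to vehicle was −1.55 (−2.09 to −1.05) in CD8 T cells, 2.0 (1.25 to 2.84) in CD4 T cells and 2.03 (1.15 to 3.02) in Foxp3 T cells, and for p38i it was 0.07 (−0.20 to 0.34), 1.01 (0.17 to 1.91) and 0.55 (−0.45 to 1.62). The call in CD4 T cells of p38i was lost when cells were thinned to 1500 UMIs (0.47), and so was that in Foxp3 T cells of p38KO (1.32), while the calls in CD8 and CD4 T cells of p38KO were made in each of 9 alternatives. Of all genes tested against vehicle, 5.22% were called lower in CD8 T cells of p38KO, 7.44% and 4.49% higher in its CD4 and Foxp3 T cells, and 6.98% higher in p38i CD4 T cells. Csf1 UMIs in CD8 and CD4 T cells were spread over cells: 91 of 264 vehicle, 96 of 242 p38i and 22 of 128 p38KO CD8 T cells had one, and 10 of 102, 25 of 135 and 43 of 135 CD4 T cells. In Foxp3 T cells 8 of 65, 18 of 119 and 19 of 78 had one, and 1 p38KO cell held 17 of the 59 UMIs of its subset. The Foxp3 level was not compared with single neutrophil markers, which summed to 1090, 4142 and 1410 CPM in that subset. At 1500 UMIs per cell the CD8 shares were 15.9%, 14.9% and 6.25%. CD8 T cells with a UMI of Pdcd1, which encodes PD-1, held 167 (145 to 193), 183 (157 to 212) and 58.3 CPM (33.3 to 94.7) of Csf1, and those without held 77.7, 68.4 and 38.8 CPM. The p38KO library was the lowest on both sides of that split, and it held the smallest share of Pdcd1 cells, 41 of 128 against 144 of 264 and 131 of 242. CD4 T cells with a UMI of the chemokine Ccl1 were few, 5, 6 and 22 cells, and held 115, 159 and 247 CPM of Csf1, against 27.2, 60.9 and 96.1 CPM in the rest. Pdcd1 and Ccl1 were chosen for these splits after the subset levels were seen.

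**Figure D2:**
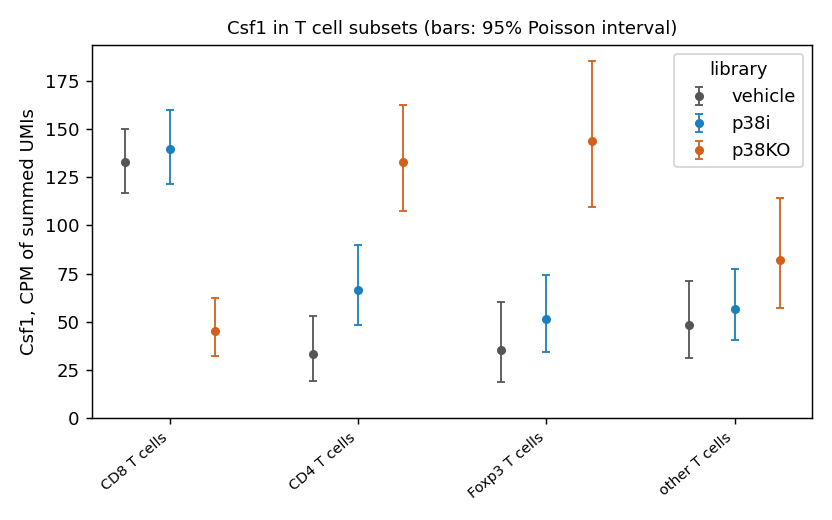
Csf1 level (y axis, CPM of summed UMIs) in 4 subsets of the T cell gate (x axis) in the 3 libraries, with bars for the 95% Poisson interval. The p38KO point is the lowest in CD8 T cells, at 45.3 CPM, and the highest in CD4 and Foxp3 T cells, at 133 and 144 CPM.

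Csf1 in monocytes and macrophages was low, and relative to neutrophils it lay within the range of neutrophil markers. Monocytes held 27.2, 33.6 and 51.2 CPM, and the p38KO value was called higher (log2 ratio 0.91, 0.55 to 1.28). Macrophages held 30.9, 8.85 and 36.7 CPM, and the p38i value was called lower (−1.80, −2.44 to −1.21). These levels were 5.55%, 8.16% and 7.67% of the neutrophil level in monocytes and 6.29%, 2.15% and 5.49% in macrophages, inside the range of the 6 neutrophil markers in the same gate and library, 1.68 to 31.5% in monocytes and 0.93 to 24.8% in macrophages. Macrophages with Csf1 more often had Csf3r: at equal depth 14 of 21 such vehicle cells had a Csf3r UMI (66.7%) against 8.79% of macrophages without Csf1, and in p38KO 33 of 54 (61.1%) against 14.3%. With gates that admit no UMI of any other gate's genes, Csf1 in macrophages came to 3 and 1 UMIs in vehicle and p38i, too few for a call (log2 ratio −1.14, −6.86 to 2.50), and the p38KO ratio in monocytes was 0.46 (−0.19 to 1.10) and not called. In the small gate of mast cells and basophils (Cpa3 and Ms4a2) the 5 vehicle cells held 26 Csf1 UMIs, 21 of them in 1 cell, and the 110 p38KO cells held 53, 30 of them in 1 cell.

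Csf2 behaved in another way: it was rare, restricted mainly to T cells and carried by a handful of cells. 142, 149 and 370 Csf2 UMIs were found in 29, 32 and 41 cells, and 140, 146 and 306 of them lay in cells with a Cd3e UMI. The single highest cell held 96, 51 and 204 of these UMIs, and 25 cells in each library held just 1. The share of Cd3e cells with any Csf2 UMI was 4.46%, 3.98% and 3.95% (27 of 605, 29 of 729 and 24 of 608). The share of T cells with Csf2 thus hardly differed between libraries, and 1 cell held 204 of the 306 UMIs in Cd3e cells of p38KO. Without the highest cell of each library, 46, 98 and 166 Csf2 UMIs were left over all kept cells. The top vehicle and p38KO cells carried 12 and 23 Cd3e UMIs together with Cd4, but also 1 C1qa UMI, which kept them out of the T cell gate. 60, 38 and 144 Cd3e cells stayed ungated in this way. As gated, T cells held 12.2, 40.2 and 24.8 CPM of Csf2, called higher in p38i (1.72, 1.21 to 2.25) and in p38KO (1.02, 0.44 to 1.63). With every cell whose Cd3e exceeded C1qa counted as a T cell, the p38i ratio was 0.11 (−0.23 to 0.46) and the p38KO ratio 1.32 (1.02 to 1.62). When cells were thinned to 1500 UMIs, the p38KO ratio was 0.25 and was not called.

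As gated, CD4 T cells held 3, 124 and 51 Csf2 UMIs in the 3 libraries and CD8 T cells 36, 13 and 5, while cells in no gate held 98, 3 and 251. With the wider T cell gate the CD4 counts were 99, 124 and 282. Of the 51 UMIs in p38KO CD4 cells as gated, 37 lay in 22 cells with Ccl1, 6 of which had Csf2 and 1 of which held 15. In p38i the cells with Ccl1 held 33 UMIs, 30 of them in 1 cell, and those without Ccl1 held 91, 51 of them in 1 cell. In vehicle the counts were 1 with Ccl1 and 2 without. NK cells, which can also make GM-CSF, held 1, 3 and 51 UMIs, 45 of the 51 in 1 p38KO cell with 13 Ncr1 UMIs and no Cd3e. 1 ungated p38KO cell with Cd4 held 21 Csf2 UMIs and all 27 UMIs of Il3, the gene of interleukin 3, that the 3 libraries contained. Myeloid gates held 0 to 3 Csf2 UMIs each in any library.

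Csf3, the ligand gene of Csf3r, is not among the 7 genes but was listed with the related cytokines. It had 2 UMIs in the vehicle library, 0 in p38i and 95 in p38KO. The 95 UMIs came from 19 cells, with at most 23 in 1 cell, and 74 of them lay in the neutrophil gate. The log2 ratio in p38KO neutrophils was 5.68 (3.77 to 8.75). The 258 p38KO neutrophils without Cxcr2 supplied 58 of these UMIs from 7 cells, and the 1350 with Cxcr2 supplied 16 from 7 cells. In p38i, 0 of 2341 neutrophils had a Csf3 UMI, which by the limit of 3 counts allows a share of up to 0.128% of cells with a UMI at their median depth of 2209 UMIs, and limits no share of cells that express the gene.

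**Figure D3:**
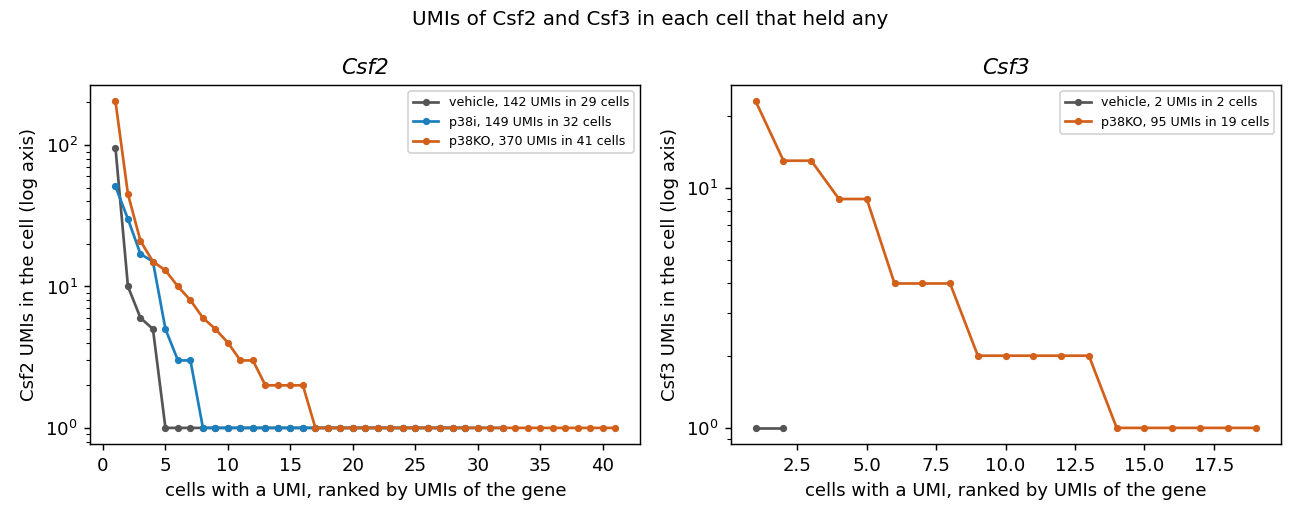
UMIs of Csf2 (left) and Csf3 (right) in each kept cell that held any (y axis, log scale), ranked from the highest cell (x axis), in the 3 libraries. The highest cell held 96, 51 and 204 Csf2 UMIs in vehicle, p38i and p38KO, and Csf3 was found in 2, 0 and 19 cells.

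On the receptor side, Csf1r separated macrophages and monocytes from neutrophils, DC, T cells and NK cells. Over the 3 libraries the small gate of B cells (Cd79a) held 97.0 to 539 CPM and cells in no gate 127 to 241 CPM. In p38KO the 16 cells of the B cell gate also held 23103 CPM of macrophage markers. Macrophages held 505 CPM (482 to 529) in vehicle, 492 (469 to 516) in p38i and 770 (752 to 788) in p38KO. Vehicle and p38i overlapped, and p38KO stood 1.52-fold above vehicle (log2 ratio 0.61, 0.53 to 0.68, called). The 5 macrophage markers summed to a higher level in the same library as well, as given above, and the part of this in the Csf1r value was not tested. Monocytes held 399 (379 to 419), 369 (354 to 384) and 439 CPM (416 to 464), with ratios of −0.11 (−0.21 to −0.02) and 0.14 (0.03 to 0.25), not called. Over all kept cells Csf1r was 205, 214 and 404 CPM, a log2 ratio of 0.98 (0.93 to 1.03) for p38KO, beside 203, 200 and 633 macrophages, so more Csf1r per cell and more cells of the type both enter this value. Macrophages accordingly held 42.3%, 32.2% and 73.2% of Csf1r UMIs.

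Neutrophils carried a low level of Csf1r, 70.1, 80.0 and 102 CPM. This was 13.9%, 16.3% and 13.2% of the macrophage level, above the 0.25 to 7.05% of the 5 macrophage markers in the same cells. The p38KO value was called higher than vehicle (0.54, 0.34 to 0.74), but not with gates that admit no other gate's genes (0.45), with cells thinned to 1500 UMIs (0.45) or relative to the median gene (0.42), and the macrophage markers in neutrophils went from 254 to 505 CPM, whose part in it was not tested. Within the neutrophil gate, cells without Cxcr2 held the least Csf1r in p38i (53.7 CPM) and the most in p38KO (86.9 CPM). Cxcr2-positive cells held the least in vehicle (68.1 CPM). DC held 73.9, 69.7 and 58.1 CPM. Neutrophils with a Csf1 UMI did not carry the receptor more often: 7.88%, 9.24% and 11.3% of them had Csf1r at equal depth, and 10.1%, 9.29% and 12.2% of those without Csf1. Ligand and receptor of the M-CSF axis thus lay mostly in different cells, Csf1 in neutrophils and CD8 or CD4 T cells, Csf1r in macrophages and monocytes. The p38KO library was highest for Csf1 in neutrophils and for Csf1r in macrophages and monocytes, but lowest for Csf1 in CD8 T cells.

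**Figure D4:**
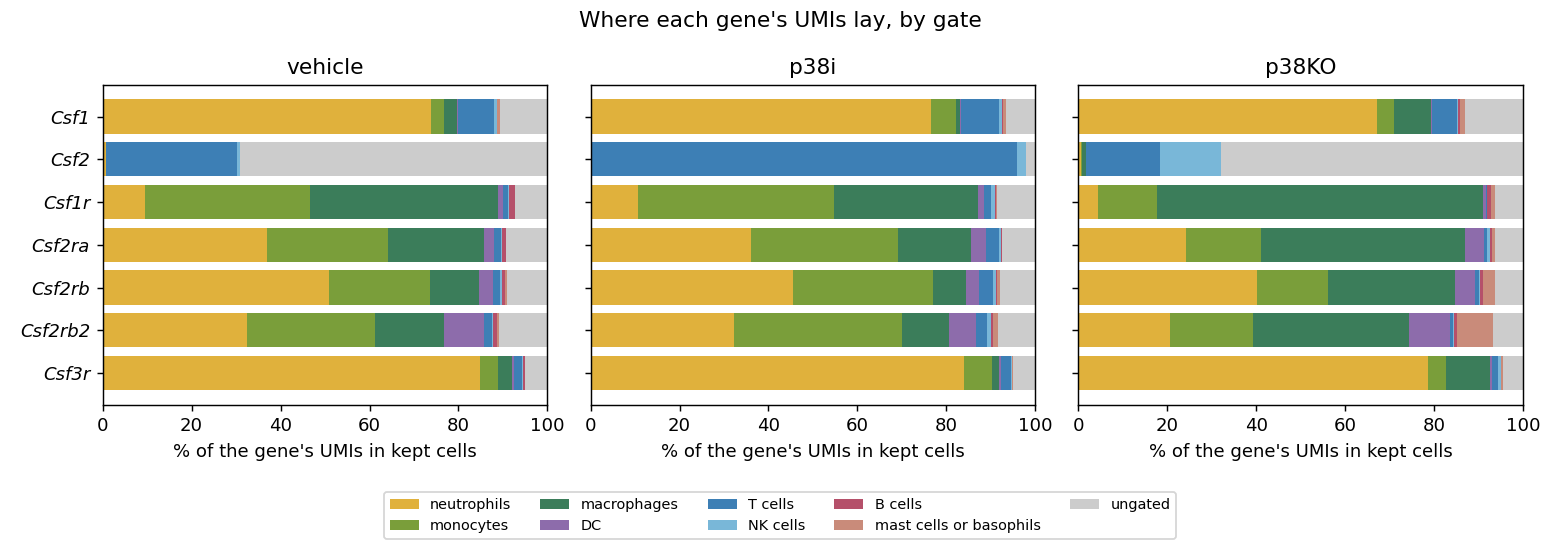
Share of each gene's UMIs in kept cells (x axis, percent) by gate, for the vehicle, p38i and p38KO libraries. Neutrophils held 67.2 to 76.7% of Csf1 and 78.6 to 84.8% of Csf3r, and the macrophage part of Csf1r was 42.3% in vehicle and 73.2% in p38KO.

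The GM-CSF receptor was spread over all myeloid gates, and its α chain differed little between libraries. Csf2ra, the ligand-binding α chain, stood at 229, 214 and 241 CPM in neutrophils, 246, 219 and 236 in monocytes, 216, 200 and 204 in macrophages and 119, 146 and 145 in DC. Neutrophils, monocytes and macrophages stood close to each other in each library, and DC were lower. The log2 ratios to vehicle ran from −0.17 (monocytes, p38i) to 0.29 (DC, p38i), and none was called. In neutrophils the intervals were −0.21 to 0.01 for p38i and −0.04 to 0.20 for p38KO (ratio 0.08, and −0.04 relative to the median gene, which turns its sign), and in monocytes −0.29 to −0.05 and −0.21 to 0.08, so differences of the called size lay outside them. T and NK cells held 13.9 to 33.1 CPM.

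Csf2rb, the shared β chain, was highest in neutrophils among the large gates, at 618 (598 to 638), 634 (615 to 653) and 729 CPM (704 to 756), followed by monocytes at 403, 493 and 402, DC at 326, 296 and 294 and macrophages at 217, 212 and 232. In neutrophils the ratios were 0.04 (−0.03 to 0.10) for p38i and 0.24 (0.17 to 0.31) for p38KO, or −0.09 and 0.12 relative to the median gene. In monocytes p38i stood above vehicle by 0.29 (0.20 to 0.38), while p38KO did not (interval −0.11 to 0.11). None reached the size limit in these gates as a whole. Among monocytes without Ly6c2, Csf2rb was called lower in p38KO, at 398 CPM in vehicle, 417 in p38i and 273 in p38KO (log2 ratio −0.54, −0.80 to −0.29), where 5.43% of all genes were called lower. The paralogue Csf2rb2 had another order. Outside the mast cell and basophil gate, DC were highest at 172, 121 and 135 CPM. Then came monocytes at 92.6, 115 and 107, neutrophils at 72.1, 87.1 and 85.9 and macrophages at 55.6, 58.1 and 65.6. The DC value was called lower in p38i (−0.50, −0.89 to −0.12), and this rested on 50 vehicle DC, 1 of which held 27 of their 114 UMIs. Without the highest cell of each library it was −0.30 and not called. The cells of the mast cell and basophil gate, which respond to interleukin 3, held the highest Csf2rb2 of all gates in each library, 417, 331 and 232 CPM. Their Csf2rb was the highest in vehicle and p38i, at 833 and 964 CPM, but not in p38KO, at 342 CPM. This gate held 5, 12 and 110 cells. In p38i this gate held 11898 CPM of neutrophil markers beside 3238 CPM of its own. Both genes lie on chromosome 15 (GRCm38, GENCODE M21), Csf2rb at 78325752 to 78353847 on the plus strand and Csf2rb2 at 78282507 to 78305721 on the minus strand, with 20030 bases between them. Their sequences are near-identical in parts, so the split of reads between them is uncertain. The chains of the GM-CSF receptor overlapped in single cells to a similar degree in all 3 libraries: at equal depth 57.5%, 54.6% and 61.1% of neutrophils with Csf2ra had Csf2rb, and 51.3%, 52.1% and 56.4% of those without.

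Csf3r outside neutrophils was low, 78.3 to 113 CPM in monocytes, 39.5 to 87.0 in macrophages and 31.1 to 60.3 in DC. As a share of the neutrophil level this was 2.10 to 8.15%, inside the range of the 6 neutrophil markers in the same gate and library except in vehicle DC (4.94% against 1.69 to 3.87%). Its called decreases, in p38i macrophages (−0.83, −1.15 to −0.52) and in DC of p38i (−0.96) and p38KO (−0.88), went with lower neutrophil markers in the same gates, 6441 and 2464 CPM in vehicle and p38i macrophages and 4433, 2112 and 645 CPM in the DC of the 3 libraries, and their part in it was not tested. Each of these 3 calls was lost in 2 of 9 alternatives, and with gates that admit no other gate's genes the DC ratios turned to 0.53 and 1.08, from 0 UMIs in vehicle and 1 in each of the other libraries.

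**Figure D5:**
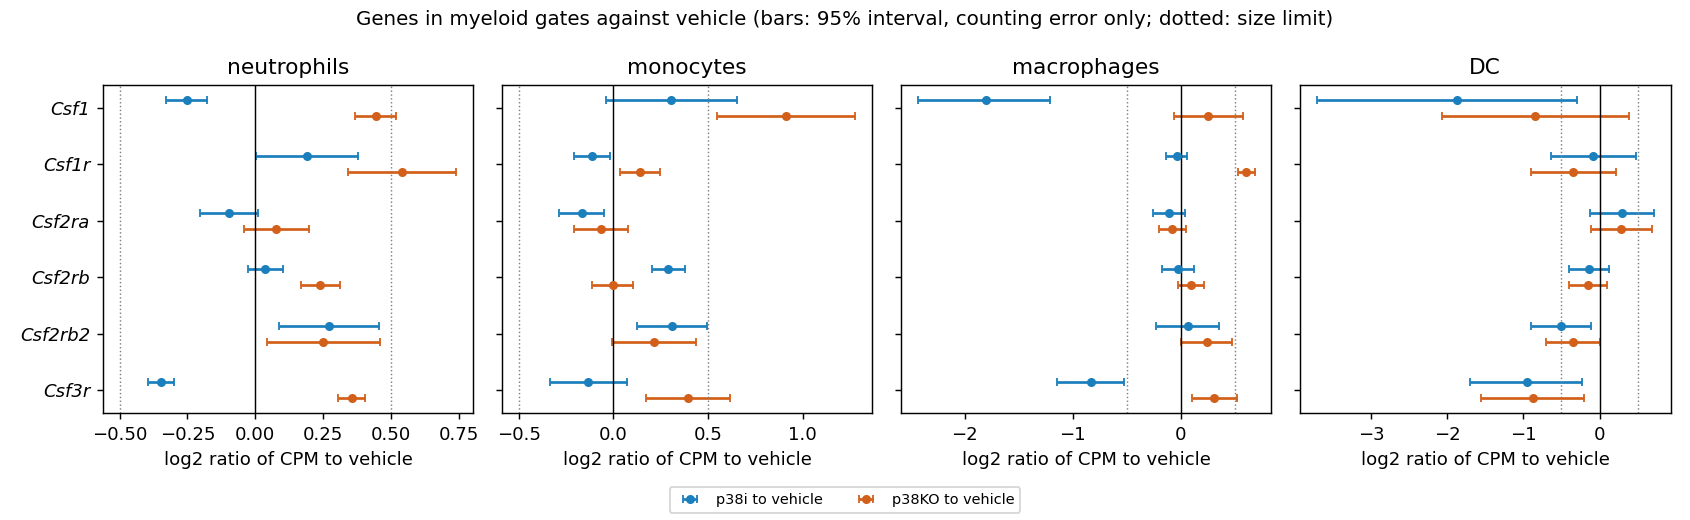
Log2 ratio of p38i and p38KO to vehicle (x axis) for 6 of the genes (y axis) in 4 myeloid gates, with bars for the 95% interval, which covers counting error only, and dotted lines at the size limit of 0.5. Csf1 and Csf3r in neutrophils lie on opposite sides of 0 in p38i and p38KO, and Csf2ra and Csf2rb stay within the limit.

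Counted over the members, calls were few in the myeloid gates. In neutrophils 6 members had enough counts. None of them was called in p38i, where 12.7% of all genes tested were, and 1 (Csf1r) was called higher in p38KO, where 10.2% of all genes were. In monocytes none of 6 was called in p38i, against 7.30% of all genes, and 1 (Csf1) was called higher in p38KO, against 9.11%. In macrophages 2 of 6 (Csf1 and Csf3r) were called lower in p38i, against 4.46% of all genes, and 1 (Csf1r) was called higher in p38KO, against 9.05%. In DC 2 of 5 (Csf2rb2 and Csf3r) were called lower in p38i, against 3.75%, and 1 of 6 (Csf3r) was called lower in p38KO, against 4.99%. The median log2 ratio of the members was −0.03 and 0.30 in neutrophils, 0.09 and 0.18 in monocytes, −0.08 and 0.24 in macrophages and −0.14 and −0.35 in DC for p38i and p38KO. In the same order, the medians over all genes tested were 0.13 and 0.12, 0.05 and 0.09, −0.01 and 0.06, and 0.04 and 0.06.

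In the T cell gate 5 of 7 members were called higher in p38i, where 7.54% of all genes tested were, and in p38KO 1 was higher and 2 lower, where 11.8% of genes were called in either direction. Besides Csf2 the 5 were receptor genes: Csf1r (13.6 and 25.8 CPM), Csf2ra (15.7 and 33.1), Csf2rb (33.4 and 89.3) and Csf2rb2 (6.68 and 12.9) in vehicle and p38i. The neutrophil markers in that gate went from 3875 CPM in vehicle to 10048 in p38i and 3189 in p38KO, and in T cells without a subset marker from 10340 to 29289. In p38i T cells Csf2ra and Csf2rb stood at 15.5% and 14.1% of the neutrophil level, above the 4.82 to 12.6% of the neutrophil markers. Csf1r stood at 5.25% of the macrophage level, above the 0.11 to 1.72% of the macrophage markers. Csf2rb2 stood at 11.3% of the monocyte level, inside the 5.33 to 19.9% of the monocyte markers. The part of carried RNA in these calls was not tested. With gates that admit no UMI of another gate's genes, Csf2ra and Csf2rb in T cells had 9 and 12 UMIs in vehicle and 10 and 12 in p38i, and no receptor gene was called there. Csf2ra fell short of the 20 counts that a call needs, and Csf2rb was little above them. The missing calls therefore do not show that the levels were equal. NK cells showed the same kind of calls for p38i, 3 of 6 higher (Csf1r, Csf2rb and Csf2rb2, against 3.84% of all genes), and 2 of 6 higher for p38KO (Csf2 and Csf3r, against 4.82%). The calls of Csf1r, Csf2rb and Csf2rb2 were lost in 4, 3 and 5 of 9 alternatives, and with gates that admit no other gate's genes their ratios were −2.16, −3.57 and −1.57. Those ratios came from part of the NK gate's UMIs, which were 12, 24 and 5 in vehicle and 38, 52 and 17 in p38i. Their intervals are not given, so neither their size nor their sign is read as a difference. The calls of Csf2 and Csf3r were lost in 4 and 1 of 9. In NK cells the neutrophil markers summed to 3442, 2669 and 7266 CPM and the DC markers to 95.9, 457 and 332 CPM, and their part in these calls was not tested.

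Genes that act with these receptors were read from a fixed list of 32: related cytokines and receptors, Jak and Stat signalling, feedback and target genes, and myeloid transcription factors. In neutrophils 4 of the 24 with enough counts were called higher in p38i, where 9.82% of all genes were: Cish, a Stat5-induced inhibitor of cytokine signalling (26.0 to 40.6 CPM, log2 ratio 0.64), Socs2 (1.13), Stat5a (0.85) and Cebpe, a factor of granule formation (0.91). In p38KO 4 of 25 were called higher, where 10.2% of all genes were: Csf3, Jak2, the kinase bound to the β chain (60.5 to 113 CPM, 0.89), Cish (0.88) and Socs1 (0.61). None was called lower in either, and the medians of the list were 0.08 and 0.18, beside 0.13 and 0.12 over all genes tested. The 8 feedback and target genes had medians of −0.25 in p38i and 0.36 in p38KO, and 2 of them were called higher in each. In monocytes Socs1 (0.55) and Socs2 (0.86) were called higher in p38i, and Il3ra (0.61), Jak2 (0.70), Cish (0.77) and Socs1 (0.96) in p38KO, of 24 each, with none lower, beside 4.76% and 9.11% of all genes called higher. Cish, Jak2 and Socs1 were thus called higher in p38KO in neutrophils and in monocytes.

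Macrophages and DC had calls on both sides, where 7.26% and 12.1% of all genes tested in macrophages and 9.09% and 11.4% in DC were called in either direction in p38i and p38KO. In p38i macrophages Socs2 (0.94) and Stat5a (0.83) were called higher, and Socs3, a feedback inhibitor of G-CSF and interleukin 6 signalling (166 to 90.9 CPM, −0.87), the kinase Pim1 (288 to 166 CPM, −0.79), Bcl2l1 (−0.54) and Cebpb (1058 to 656 CPM, −0.69) lower, of 24 tested. In p38KO macrophages Il3ra (0.57) and Stat5a (0.73) were called higher and Cebpb (−0.56) lower, of 26. In DC Socs1 was called higher in p38i (1.66) and p38KO (1.26), and Socs3 (−0.51 and −1.02) and Pim1 (−0.55 and −0.69) lower in both, while Jak2 (0.64) was called higher and Kit (−0.70) and Cebpb (−1.16) lower in p38KO alone. The neutrophil markers were also lower than vehicle in these gates. They summed to 6441, 2464 and 4517 CPM in macrophages and to 4433, 2112 and 645 CPM in DC, and their part in the lower calls was not tested. Both contrasts share the vehicle library, so calls in both are not independent of each other. Spi1, Irf8, Mcl1 and Ptpn6 were among the listed genes that were not called in any of the 4 gates.

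The genes whose levels followed 6 of the members most closely over 24 points (8 gates in 3 libraries, Pearson r of log2(CPM + 10) among 4255 genes) are given as a description, since the points share libraries and RNA carried between gates. They were Ccl3 (r = 0.92), Ubb and Xpo6 for Csf1, and Ccl1 (0.94), Ifng (0.90) and Igflr1 for Csf2. For Csf1r they were Clec4a2 (0.96), Cd302 and Lgmn, and for Csf3r Tnfaip2 (0.97), Ccrl2 and Trem1. Alox5ap, a gene of leukotriene synthesis, came first for both Csf2rb (0.96) and Csf2rb2 (0.93), and Csf2rb was the second closest to Csf2rb2 (0.90). Between the members themselves, Csf1 and Csf1r had an r of −0.30, and Csf2 and Csf2rb one of −0.71.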

How the data were processed

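The data were UMI counts per gene and cell barcode, as the authors deposited them, 1 filtered matrix of 32285 genes for each of 3 libraries. Per the file headers and the submitters' processing notes, the authors made these counts with Cell Ranger (6.0.0) on mm10. Their later steps in R 4.2.1 and Seurat 5 were not used here. The annotation behind the counts is not given in the sources used here.

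The libraries held 4588, 6343 and 5212 barcodes for vehicle, p38i and p38KO, and the kept cells 20795195, 24210342 and 24374173 UMIs. Genes were matched by symbol and Ensembl ID, and each cell was placed by raw counts of gate genes. A cell with at least 2 UMIs of Cpa3 and Ms4a2 went to mast cells or basophils and one with at least 2 of Cd79a to B cells, 2 gates added to the 6 named in the report. T cells needed Cd3e and no C1qa. NK cells needed Ncr1 and neither Cd3e nor C1qa. Macrophages needed at least 2 UMIs of C1qa and neither Cd3e nor Ncr1, and DC Flt3 with fewer than 2 of C1qa. Monocytes needed at least 2 UMIs of Ly6c2 and Fn1, more than of Cxcr2 and Hdc, and neutrophils at least 1 of Cxcr2 and Hdc, no fewer than of Ly6c2 and Fn1. B cells (39, 31 and 16 cells) were too few to describe further. Gates and their markers rest on few genes, so names may differ from those of the study. No doublet caller was run. Leaving out the deepest 2% of each gate served as an alternative.

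Counts were summed per gate and library and scaled to CPM. With 1 library per group there was no test between groups, and intervals cover counting error only, where PCR and sampling of pooled tumors are not included. The ratio of both contrasts rests on the same vehicle library. 0.5 stood in for a count of 0 in a ratio. Where cells were thinned, each was drawn down to 1500 UMIs with seed 1, which kept every cell. The carry-over of RNA between gates was described by setting a gene's level outside its main gate, as a percent of the main gate, beside the same percent for each marker of that main gate. Named genes were the 7 members, the called genes of the fixed pathway list, the 3 genes most alike to each member (those for Csf2ra are not reported here) and the genes that separate neutrophils with Csf1. The members and all lists were chosen with earlier results of these data known. Alternatives were other cell filters, gate rules, scalings and depths. The scripts were tested on simulated data. Gene positions came from GENCODE M21 on GRCm38, whose gene IDs matched the files, and promoters from RefSeq on GRCm38.p6. Python 3.11.15, numpy 2.4.6, scipy 1.17.1, pandas 2.3.3 and matplotlib 3.10.9 were used.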

Additional observations from a re-analysis of the deposited data

Results flagged for a closer look

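Some genes were called in opposite directions in different gates of the same library, and these differences between gates were not tested. All values are log2 ratios to vehicle. Csf1 in p38KO stood at 2.0 in CD4 T cells and 2.03 in Foxp3 T cells and at −1.55 in CD8 T cells. Csf2 stood at 5.04 in CD4 and −1.14 in CD8 T cells of p38i, and at 3.61 and −1.63 in those of p38KO. For both contrasts the vehicle CD4 gate left out the cell with 96 of the 142 vehicle UMIs. Over the alternatives the lowest CD4 ratios were 0.10 in p38i and 0.83 in p38KO, and each CD4 call was lost in 1 of 9. The CD8 calls were lost in 1 of 9 in p38i and 2 of 9 in p38KO.

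Csf1r in p38i stood at 2.92 in CD4 and 3.83 in Foxp3 T cells and at −1.25 in CD8 T cells. These calls were lost in 5, 4 and 5 of 9 alternatives, and with gates that admit no other gate's genes the CD4 and Foxp3 ratios were −0.092 and −0.48. From vehicle to p38i the neutrophil markers went from 2112 to 5263 CPM in CD4 and from 1090 to 4142 CPM in Foxp3 T cells, and the macrophage markers from 58.5 to 158 and from 70.3 to 222 CPM, and their part in it was not tested. Csf1r in p38KO stood at 0.61 in macrophages and 0.54 in neutrophils and at −1.0 in T cells. The macrophage call was made in each of 9 alternatives. The neutrophil call was lost in 3 of 9 and the T cell call in 4 of 9, with T cell ratios of up to 0.24. Csf2rb2 in p38i stood at 0.95 in T cells and 1.61 in NK cells and at −0.50 in DC, and these calls were lost in 4, 5 and 4 of 9 alternatives. Csf3r in p38KO stood at 1.5 in NK cells and 0.64 in CD8 T cells and at −0.88 in DC and −2.54 in Foxp3 T cells. The CD8 and Foxp3 calls were lost in 5 and 3 of 9 alternatives, and p38KO Foxp3 T cells held 4 Csf3r UMIs. In p38KO CD8 T cells Csf3r was at 3.84% of the neutrophil level, inside the 2.74 to 5.07% of the neutrophil markers there.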

How the results depend on the processing

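Each of 57 log2 ratios to vehicle was recomputed in 10 ways, and 496 of the 570 values stayed inside the interval of the reported value. Of the others, 59 left it and 15 changed the sign of a called ratio. Changes of sign in ratios that were not called are not in the 15, and some are among the values below. No paired analysis was possible because each group has 1 library, and for the same reason no replicate could be left out. With cells thinned to 1500 UMIs, Csf1r was 0.014 in p38i monocytes and 0.14 and 0.68 in p38i and p38KO macrophages, Csf2rb 0.39 in p38i monocytes, Csf3r 0.31 in p38KO neutrophils, Csf1 −0.31 in p38i T cells, Csf2 0.25 in p38KO T cells, Csf2rb −0.83 in p38i NK cells and Csf2ra −2.40 in p38i CD4 T cells. With the median gene set to 0, neutrophils of p38i and p38KO stood at −0.22 and −0.043 for Csf2ra, −0.089 and 0.12 for Csf2rb and −0.47 and 0.23 for Csf3r. With the mean CPM over cells, Csf1r was 0.17 and 0.69 in macrophages, Csf2rb 0.11 in p38i neutrophils, Csf3r 0.30 in p38KO neutrophils and Csf2rb −0.79 in p38i NK cells. With gate thresholds 1 UMI higher, Csf1 was −0.22 in p38KO T cells.

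With gates that admit no other gate's genes, Csf1r was 0.97 in p38KO macrophages and Csf1 −0.28 in p38KO T cells. In DC, Csf2rb2 was 1.70 (p38i) and Csf3r 0.53 (p38i) and 1.08 (p38KO). In T cells Csf2ra was −0.072 and Csf2rb −0.22 (p38i) and Csf1r 0.24 (p38KO). In p38i, NK cells had −2.16 for Csf1r, −3.57 for Csf2rb and −1.57 for Csf2rb2, CD4 T cells −0.092 for Csf1r and −2.68 for Csf2ra, and Foxp3 T cells −0.48 for Csf1r. These gates keep only part of the cells, and intervals are not given here, so a change of sign is not read as a difference. The cause was not tested. Counting T cells by Cd3e above C1qa, an alternative chosen after seeing the data like the one without the top cell, put Csf2 at 0.11 in p38i T cells.

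Fewer genes were called against vehicle with cells thinned, with more counts asked of a gene and, in some gates, with the strictest gates. The limit of 100 counts removed no counts but made the set of genes tested smaller. Thinned, it went in neutrophils of p38i from 1145 to 749, in monocytes of p38i and p38KO from 732 to 447 and 1069 to 428, in macrophages from 720 to 358 and 1331 to 536, in DC from 648 to 116 and 859 to 130, in T cells from 1011 to 524 and 1177 to 609 and in NK cells from 650 to 260 and 766 to 271. Of genes with at least 100 counts it was 669 and 615 (of 1145 and 1087) in neutrophils, 421 and 541 in monocytes, 384 in macrophages of p38i, 251 and 346 in DC, 566 and 708 in T cells and 255 and 331 in NK cells. With the strictest gates it was 423 in macrophages of p38i, 438 in DC of p38KO and 414 in NK cells of p38KO.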
